A study of Saccharomyces cerevisiae with 10 samples.

Results

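The hexose transporter genes of budding yeast, Saccharomyces cerevisiae, were followed together with the galactose permease gene GAL2 and the glucose sensor genes RGT2 and SNF3. The 10 genes were chosen by their open reading frame names: GAL2 (YLR081W), HXT1 (YHR094C), HXT2 (YMR011W), HXT3 (YDR345C), HXT4 (YHR092C), HXT5 (YHR096C), HXT6 (YDR343C), HXT7 (YDR342C), RGT2 (YDL138W) and SNF3 (YDL194W). They are 10 of 6212 frames listed for the arrays. Transcript levels had been compared between a wild-type strain (wt) and 5 mutant strains, ptc1, ptc2, ptc3, ptc4 and ptc5. Each is named after a gene of the type 2C protein phosphatases, enzymes that take phosphate off serine and threonine residues. All 6 strains had been grown in YPD, a rich medium with glucose, at 28 °C to log phase, at an absorbance between 0.6 and 0.8. The labels name neither the strain background nor the form of each mutant allele, nor how many clones were grown.

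Mutant and wt RNA were hybridised together on 2-colour arrays. The mutant was labelled with Cy5 and the wt with Cy3 on array 1 of each mutant, and the dyes were exchanged on array 2. Every value is a log ratio of mutant over wt, read here as log2. No label states the base of the logarithm, and with natural logarithms all folds below would be too small. The 2 arrays of a mutant were taken as a dye swap of the same RNA, so that each strain counts as 1 sample. An SD beside a mean covers these 2 arrays only (n = 2, technical). A ratio between 1 mutant extract and 1 wt extract has no replicate test. It also cannot separate fewer cells carrying a transcript from less transcript per cell, nor can it set the level of 1 gene against that of another.

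Yeast takes up glucose by facilitated diffusion through the Hxt proteins, which differ in affinity and are made at different glucose levels. Rgt2 and Snf3 resemble these carriers but act as sensors of extracellular glucose. When glucose binds them, the corepressors Mth1 and Std1 are marked for destruction, and the repressor Rgt1 is released from HXT promoters. A second pathway, through the kinase Snf1 and the repressor Mig1, silences the high-affinity carriers, GAL2 and many genes for other carbon sources while glucose is plentiful.

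The arrays held between 4195 and 4802 values each, and 3606 frames had a value on all 10. Array medians lay between −0.029 and 0.035, except on ptc2 array 2, where the median log2 ratio was 0.23. Across all genes the 2 arrays of a mutant correlated with r between 0.19 and 0.51. On the arrays of their own mutants, PTC1, PTC2, PTC3 and PTC5 had log2 ratios between −8.79 and −1.86. PTC2 was measured on only 1 of its 2 arrays. For PTC4 both ptc4 arrays lacked a value, so that strain's label could not be checked this way.

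Of 100 possible values, the 10 genes had 60. HXT3, HXT6 and HXT7 were measured on all 10 arrays, GAL2 and HXT4 on 8, HXT5 on 6 and HXT1 on 5. SNF3 had 2 values, HXT2 had 1 and RGT2 had 0. Spots with a diameter below 120 µm or with Cy3 and Cy5 brightness below 150 units had been dropped before deposit, so a missing value is not a low ratio. Among all 6212 frames, 14.9% had no value on any array.

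RGT2, the sensor of high glucose, could not be compared in any mutant. SNF3, the sensor of low glucose, had a log2 ratio of −0.17 on ptc2 array 2 and of −0.31 on ptc3 array 2. With 1 array per mutant, neither value has a dye swap to set against it. On ptc2 array 2 the SNF3 value was −0.40 after the array's median was subtracted.

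Hxt1 and Hxt3 are low-affinity carriers, made when glucose is abundant. HXT3 had log2 ratios of 0.32 and 0.12 on the 2 ptc1 arrays and of 0.33 and 0.73 on the ptc2 arrays. In ptc3 they were 0.26 and 0.28, in ptc4 0.14 and 0.30, and in ptc5 0.32 and 0.31. Thus HXT3 was above wt on all 10 arrays, with each mutant's 2 arrays on the same side. Of the 3606 frames measured on all arrays, 1.61% were above 0 on every one. The fold over wt was small, between 1.17 in ptc1 and ptc4 and 1.45 in ptc2. The mean of the 5 mutants was 0.31 ± 0.13 (SD, n = 5 mutants).

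HXT1 was measured on both arrays in ptc5 alone, at 0.0090 and 0.39, which average 0.20 ± 0.27 (SD, n = 2 arrays) on the log2 scale. Its single values were −0.25 in ptc1, 0.70 in ptc2 and 0.0030 in ptc4. The ptc2 value comes from the array with the raised median and was 0.47 after centring. Of its 5 values, 1 was below 0 and 2 were within 0.0090 of it.

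Hxt2 and Hxt4 are carriers made at low or moderate glucose. HXT2 had only a value of 0.33, on ptc3 array 1. HXT4 had log2 ratios of 0.085 and 0.26 in ptc1, −0.18 and −0.18 in ptc3, and −0.11 and −0.095 in ptc5. The dye swaps of HXT4 in ptc3 and ptc5 differed by 0.0030 and 0.012, and only 0.708% and 2.43% of all genes differed less. Single arrays gave 0.62 in ptc2, or 0.39 after centring, and −0.17 in ptc4. HXT4 was thus above wt in ptc1 and below it in ptc3 and ptc5, by at most 1.13-fold.

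HXT5 encodes a carrier of moderate affinity that is made in slow-growing and starved cells. Its log2 ratios were 0.36 and 0.86 in ptc1, a mean of 0.61 ± 0.36 (SD, n = 2 arrays) and 1.53-fold over wt. In ptc3 they were 0.38 and 0.32, a mean of 0.35 ± 0.036. On single arrays the values were −0.22 in ptc4 and −0.063 in ptc5, and ptc2 had none. HXT5 thus lay above wt on all 4 arrays of ptc1 and ptc3 and below it on the 1 array each of ptc4 and ptc5.

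Hxt6 and Hxt7 are high-affinity carriers, with nearly identical coding sequences from neighbouring genes. HXT7, HXT6 and HXT3 lie on chromosome IV in the R64 gene table. Array features for HXT6 and HXT7 may share hybridisation, so both genes count as uncertain. HXT7 had log2 ratios of −0.11 and −0.092 in ptc1, −0.50 and −0.010 in ptc2, and −0.24 and 0.037 in ptc3. They were −0.73 and −0.52 in ptc4 and −0.38 and −0.53 in ptc5. HXT7 was below wt on 9 of 10 arrays and furthest below in ptc4, at −0.62 ± 0.14 (SD, n = 2 arrays), 1.54-fold lower. All 5 mutant means of HXT7 were below 0, as for 7.60% of the 3606 frames, and their mean was −0.31 ± 0.23 (SD, n = 5 mutants).

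HXT6 had log2 ratios of 0.84 and 0.46 in ptc1 and of 0.29 and 0.15 in ptc5, above wt on all 4 arrays. On the ptc2 arrays they were 0.29 and 1.64, on the ptc3 arrays 0.39 and −0.97, and on the ptc4 arrays −0.22 and 0.83. The 2 arrays thus gave opposite directions in ptc3 and ptc4 and the same direction in ptc1, ptc2 and ptc5. In ptc1 the mean was 0.65 ± 0.26 (SD, n = 2 arrays), 1.57-fold over wt, and in ptc2 it was 0.97 ± 0.95. The dye swaps of HXT6 differed by 1.34 in ptc2, 1.36 in ptc3 and 1.05 in ptc4. Of all genes, 99.6%, 99.7% and 99.2% differed less in these mutants.

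**Figure D1:**
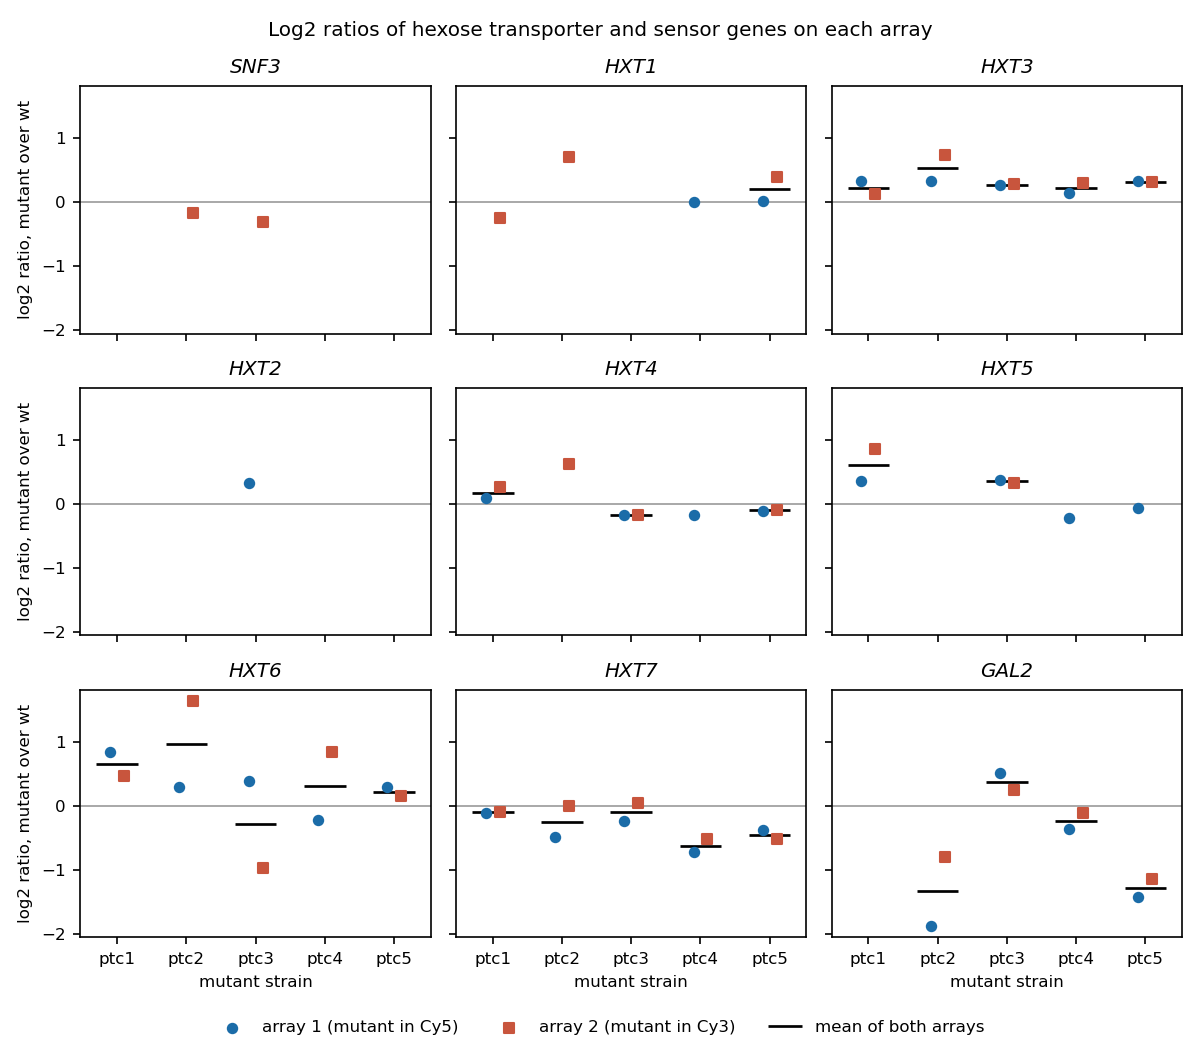
Log2 ratio of mutant over wt (vertical axis) for 9 of the 10 genes in each mutant strain (horizontal axis), with circles for array 1, squares for array 2 and bars for the mean of both; RGT2 had no value. HXT3 was above 0 on all 10 arrays, GAL2 was far below 0 in ptc2 and ptc5, and the 2 arrays of HXT6 lay more than 1 apart in ptc2, ptc3 and ptc4.

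The neighbours HXT6 and HXT7 had unequal ratios. On the same array the log2 ratio of HXT6 exceeded that of HXT7 on 9 of 10 arrays. The mean difference was 0.75 in ptc1, 1.22 in ptc2, 0.93 in ptc4 and 0.67 in ptc5. In ptc3 it was −0.19, from 0.63 on array 1 and −1.01 on array 2. Over the 5 mutants the mean difference was 0.68 ± 0.53 (SD, n = 5), with an exact two-sided sign-flip permutation p = 0.125, where 0.0625 is the smallest p the design allows. This difference was chosen for testing after its values were seen. The 5 differences also share the wt extract, so they are not independent as the sign flips assume, and the p leaves out the spread of wt. Across the 10 arrays HXT6 and HXT7 correlated with r = 0.15, HXT3 and HXT6 with r = 0.64, and HXT3 and HXT7 with r = 0.37. These correlations are descriptions, since the arrays come in 5 pairs and share the wt RNA.

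GAL2 encodes the galactose permease, which also carries glucose and belongs to the same protein family. Its mutant means spanned 1.71 on the log2 scale, the widest range among the 10 genes. Its log2 ratios were −1.88 and −0.80 in ptc2, 0.50 and 0.24 in ptc3, −0.36 and −0.12 in ptc4, and −1.43 and −1.15 in ptc5. GAL2 had no value in ptc1. It was thus below wt on all 6 arrays of ptc2, ptc4 and ptc5 and above wt on both ptc3 arrays. The mean was −1.34 ± 0.76 (SD, n = 2 arrays) in ptc2, 2.53-fold lower, and −1.29 ± 0.20 in ptc5, 2.44-fold lower. By this mean GAL2 ranked 6 from the lowest of 4086 genes in ptc2 and 10 from the lowest of 4245 in ptc5. In ptc3 the mean was 0.37 ± 0.19, higher than for 97.0% of genes, and in ptc4 −0.24 ± 0.17, higher than for 8.04%. The ranges of the arrays of ptc2 and ptc5 overlapped, while those of ptc3 and ptc4 stood apart from each other and from both.

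Genes were called by size because a single mutant could not be tested against wt. The stricter rule required the mean to reach 2-fold and each array to reach 1.5-fold the same way. GAL2 met it as lower in ptc2, as did 0.538% of 4086 genes, and in ptc5, as did 0.636% of 4245 genes. None of the 10 genes met it in ptc1, ptc3 or ptc4, where 0.499%, 0.137% and 0.193% of all genes did in either direction. In all, 0.979% of genes met it in ptc2 and 0.707% in ptc5. As deposited, the GAL2 call in ptc2 rests on array 1, since array 2 alone gave −0.80. After the raised median of array 2 was subtracted, its GAL2 value was −1.03. On array 2 alone HXT6 also passed 2-fold in ptc2, and was at 1.41 after centring.

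A milder rule required the mean to reach 1.5-fold and each array to reach 0.32 on the log2 scale the same way. In ptc1, HXT5 and HXT6 met it as higher out of 5 of the genes measured on both arrays, against 1.56% of all genes. HXT7 met it as lower in ptc4, 1 of 4, against 1.06%. GAL2 met it as lower in ptc2, 1 of 4, and in ptc5, 1 of 6, against 1.35% and 2.26%. In the opposite directions, no member was called in ptc1 (0.217% of all genes lower), ptc2 (3.92% higher), ptc4 (0.891% higher) or ptc5 (1.06% higher). In ptc3 0 of 6 met it in either direction, against 0.320% higher and 0.502% lower. With each array centred on its median the same 5 calls were made, while the shares of all genes in ptc2 became 2.25% higher and 2.15% lower. Since dim spots were removed, these counts cover the measured members only. From ptc1 to ptc5 their median log2 ratios were 0.22, 0.14, 0.086, −0.011 and 0.048. The corresponding medians over all genes were −0.028, 0.12, 0.0030, 0.0050 and 0.025.

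Tests were possible between mutants, using the 5 mutant means as samples, and for the 5 mutants as a set against the 1 wt sample. The first comparison asks whether a transcript in 1 mutant differs from the mean of the other 4, in which wt cancels. HXT3, HXT6 and HXT7 were the 3 members with values on all arrays and entered the fit with 3606 frames. None passed in any mutant by limma at an adjusted p of 0.05. Of all frames, 3.41% passed in ptc1, 0.0277% each in ptc3 and ptc5, and 0% each in ptc2 and ptc4. HXT6 had the largest estimates of these 3 members, in ptc2 and in ptc3. It was 0.74 (SE 0.30) above the other mutants in ptc2 on the log2 scale (limma adjusted p = 0.427) and 0.82 below them in ptc3 (estimate −0.82, SE 0.27, limma adjusted p = 1.0). Both estimates rest on array 2: on that array alone they were 1.52 and −1.74, and on array 1 alone −0.030 and 0.092.

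The other intervals were wide against the ratios. The 95% interval for HXT7 in ptc4 against the other mutants ran from −0.82 to 0.030 around −0.40 (limma adjusted p = 1.0). For HXT3 in ptc2 it ran from −0.0058 to 0.55 around 0.27 (limma adjusted p = 0.438). In ptc1, the only mutant with more than 1 call among all genes, the estimates were −0.12 for HXT3, 0.35 for HXT6 and 0.26 for HXT7, with limma adjusted p between 0.471 and 0.707. GAL2 could be fitted only without ptc1. There it was 1.33 (SE 0.37) higher in ptc3 than in the mean of ptc2, ptc4 and ptc5, and it did not pass the limma threshold.

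For the 5 mutants as a set against wt, 0 of the 3 members passed by limma, against 0.194% of the 3606 frames. All 3 had an unadjusted p under 0.05, as did 23.6% of frames. HXT3 was at 0.31 (SE 0.064, 95% interval 0.17 to 0.46, limma adjusted p = 0.0684) and above wt in 5 of 5 mutants. HXT7 was at −0.31 (SE 0.084, 95% interval −0.50 to −0.12, limma adjusted p = 0.0849) and below wt in 5 of 5. HXT6 was at 0.37 (SE 0.15, limma adjusted p = 0.167), above wt in 4 of 5. When each of the 10 arrays was a sample and their number a replicate block, HXT3 and HXT7 passed (limma adjusted p = 0.0066 and 0.016), as did 14.3% of all frames, and they passed without the block too, as did 9.21%. Both also passed with ptc1 left out (limma adjusted p = 0.0082 and 0.017), where 18.3% of frames did, and on array 1 of each mutant alone (0.032 and 0.027), where 8.35% did. Neither passed on array 2 alone (limma adjusted p = 0.059 and 0.188) or with ptc2, ptc3, ptc4 or ptc5 left out (0.115 to 0.308). GAL2, fitted over the 4 mutants that measured it, was at −0.62 (SE 0.24, limma adjusted p = 0.0997). The blocked fit counts dye swaps as samples, and all these fits leave out the spread of wt itself, because the wt extract is common to all ratios.

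**Figure D2:**
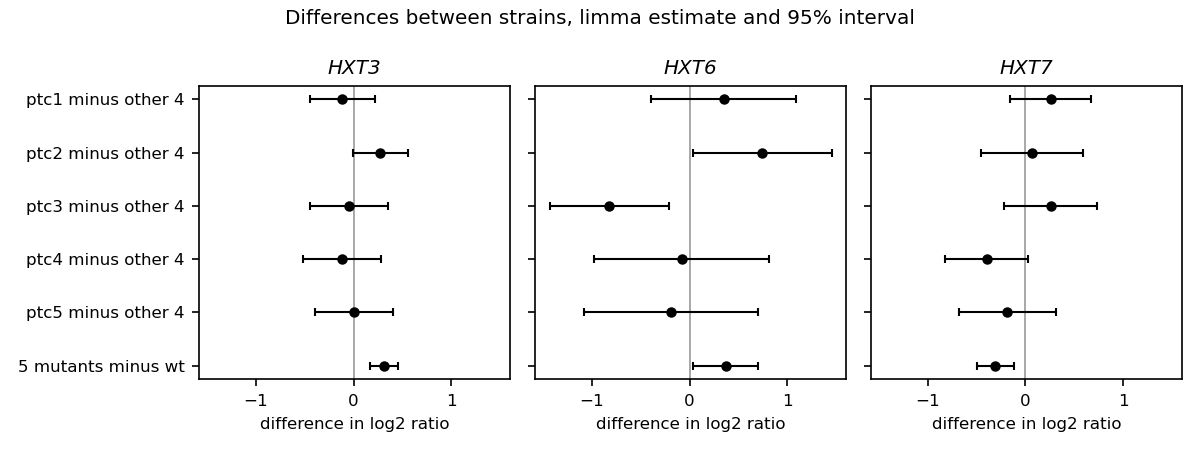
Differences in log2 ratio (horizontal axis) for HXT3, HXT6 and HXT7 between each mutant and the mean of the other 4, and for the mean of the 5 mutants against wt (rows). Points are limma estimates and bars 95% intervals, unadjusted; HXT3 at 0.31 and HXT7 at −0.31 lie on opposite sides of 0 in the lowest row.

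The profiles most similar to 3 of the genes were then listed, by Pearson r over the arrays that measured the gene. For HXT6 these were MLS1, malate synthase of the glyoxylate cycle (r = 0.985), SSN3, the kinase of the Mediator complex (r = 0.983), SRP1, the nuclear import receptor karyopherin alpha (r = 0.968), SGE1, a multidrug transporter (r = 0.964), and SFB2, a vesicle coat protein (r = 0.961). The likeness included the disagreement between dye swaps. MLS1 had log2 ratios of 0.43 and 2.14 on the 2 ptc2 arrays, 0.30 and −1.40 in ptc3, and −0.27 and 1.10 in ptc4. All 5 genes, like HXT6, were above 0 on array 1 and below on array 2 in ptc3, and the reverse in ptc4. Of 3928 genes with these 4 values, 3.59% had that order of signs. The 5 genes were picked for likeness on these same arrays, so their shared signs follow largely from that choice. The part that hybridisation to these features had in the HXT6 ratios was not tested.

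For HXT7 the most similar profiles were those of MTD1, a cytosolic methylenetetrahydrofolate dehydrogenase (r = 0.935), and ADE4, the first enzyme of purine synthesis (r = 0.935). KGD2, of the mitochondrial 2-oxoglutarate dehydrogenase complex, followed (r = 0.892), then the purine synthesis genes ADE2 (r = 0.879) and ADE17 (r = 0.875). In ptc4, where HXT7 was lowest, MTD1 had log2 ratios of −0.81 and −0.84 and ADE4 of −0.61 and −0.49. MTD1, ADE4, ADE2 and ADE17 were below wt on every array, and KGD2 was above wt on both ptc1 arrays, at 0.26 and 0.084, and on ptc2 array 2, at 0.28. For GAL2, over 8 arrays, the nearest were MCD4, of glycosylphosphatidylinositol anchor synthesis (r = 0.942), TAG1 (r = 0.938), the isomaltase gene IMA3 (r = 0.929), BUD5, of bud-site selection (r = 0.918), and the transcription factor gene STB5 (r = 0.917). Of these 5, only IMA3 was lower than wt by over 2-fold in a mutant mean, with −1.29 and −1.17 on the ptc2 arrays and −1.42 and −1.02 on the ptc5 arrays. Each profile was picked as the closest of 3605 or 3653 genes on few arrays that share wt RNA and dye order, so such values of r describe these arrays only.

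**Figure D3:**
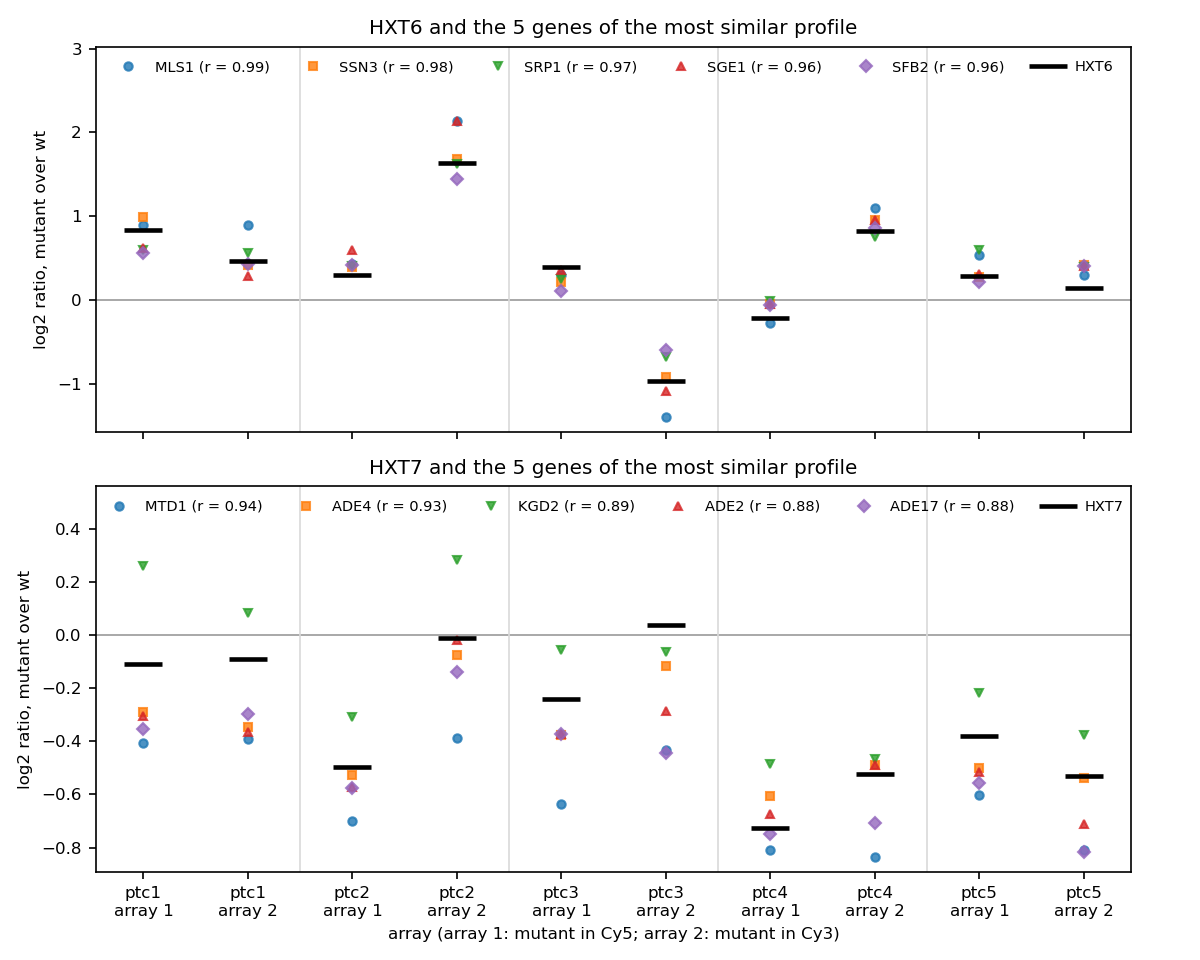
Log2 ratio of mutant over wt (vertical axis) on each of the 10 arrays (horizontal axis) for HXT6 (upper) and HXT7 (lower), drawn as black dashes, with the 5 genes of highest Pearson r as coloured symbols. On ptc3 array 2 HXT6 was at −0.97 and its 5 companions were below 0 too, while ptc3 array 1 had all 6 above 0.

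Further carriers of the family were sparsely measured. Of 11, HXT8 to HXT17 and STL1, a glycerol and proton symporter, 2 had a value on all arrays and 3 had none. By the milder size rule, HXT11 was lower in ptc2, with −0.70 and −1.10, and HXT17 in ptc5, with −1.39 and −0.37. STL1 was lower in ptc5, with −1.26 and −0.67. In ptc2 1 of 3 genes measured on both arrays was thus called lower, against 1.35% of all genes, and in ptc5 2 of 5, against 2.26%. None was called in ptc1, ptc3 or ptc4. HXT9 is nearly identical to HXT11 and may share its hybridisation. It had single values of −1.79 in ptc2, 0.15 in ptc4 and −0.79 in ptc5, and 0.51 and 0.26 in ptc3. The median over family genes measured on both arrays was −0.28 in ptc2 and −0.56 in ptc5, as against 0.19 in ptc3 and −0.028 in ptc4. Over all genes these medians were 0.12, 0.025, 0.0030 and 0.0050. The family medians cover unlike sets, of 3 genes in ptc2, 5 in ptc5, 4 in ptc3 and 3 in ptc4. HXT17 and STL1 entered in ptc5 only and HXT9 in ptc3 only, so differences in size between these medians partly reflect which spots were measured. HXT16 had 1 value, −0.93 in ptc5. HXT12 and HXT15, with 10 values each, stayed between −0.35 and 0.43.

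**Figure D4:**
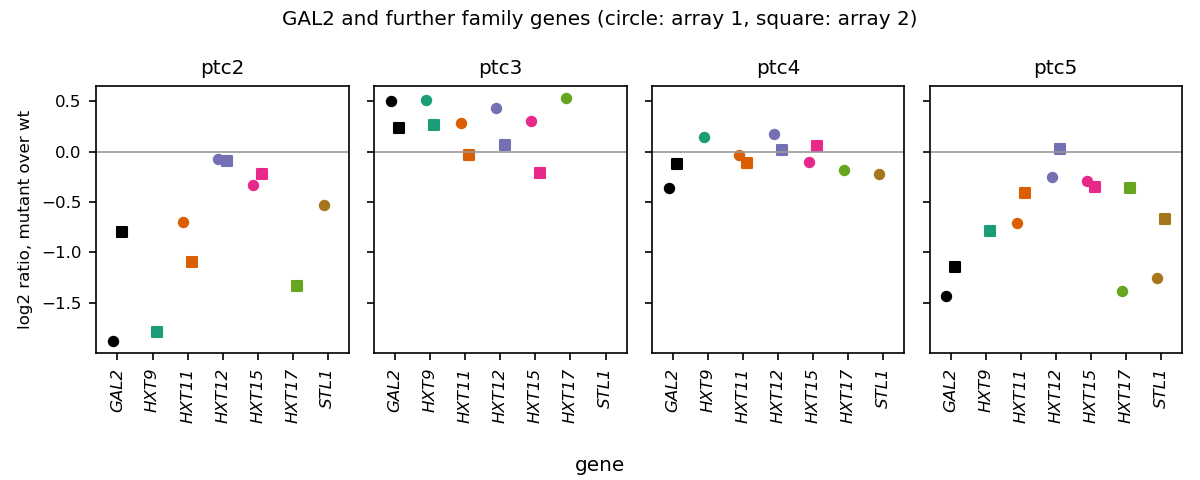
Log2 ratio of mutant over wt (vertical axis) for GAL2 and 6 further family genes (horizontal axis) in ptc2 to ptc5, with circles for array 1 and squares for array 2; a missing symbol is a missing value. GAL2, HXT9, HXT11, HXT15, HXT17 and STL1 had only values below 0 in ptc2 and ptc5, and all values of HXT12 and HXT15 lay between −0.35 and 0.43.

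Of 11 genes listed for galactose control and use, 6 were measured on all arrays and 2 on none. GAL1 and GAL7, of the galactose breakdown pathway, were those without a value. GAL10, of the same pathway, had single values of −0.045 in ptc3, −0.45 in ptc4 and −3.13 in ptc5. Each came from array 1 and has no dye swap to set against it. PGM2, the phosphoglucomutase that also answers to stress, was the only one to meet the milder size rule, as lower in ptc3, ptc4 and ptc5, at −0.98 ± 0.13, −0.98 ± 0.043 and −0.86 ± 0.20 (SD, n = 2 arrays). Of the list genes measured on both arrays this was 1 of 7 in ptc3, 1 of 6 in ptc4 and 1 of 7 in ptc5. Of all genes, 0.502%, 1.06% and 2.26% were called lower in these mutants. Against the other 4 mutants PGM2 was higher by 1.11 in ptc1 (limma adjusted p = 0.011). GCY1, a glycerol dehydrogenase gene, was higher there by 0.57 (limma adjusted p = 0.037). Thus 2 of 6 tested genes were higher in ptc1 and 0 lower, against 3.41% of all frames called in either direction. Relative to wt, PGM2 was at only 0.26 and GCY1 at 0.32 in ptc1, and neither met the milder rule as higher. PGM2 was at −0.55 in ptc2, and GCY1 lay between −0.30 and −0.19 in the other 4 mutants. On array 2 alone neither passed (limma adjusted p = 0.217 and 0.310), and GCY1 also missed the threshold on array 1 alone and with ptc3, ptc4 or ptc5 left out (0.071 to 0.178). GAL80, the repressor of the regulon, stayed between −0.12 and 0.34 on all arrays, and GAL3, its galactose sensor, between −0.55 and 0.40.

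In the relay from the sensors to the HXT promoters, 10 of 12 genes were measured on all arrays and 11 on both arrays of any 1 mutant. HXK2, the main hexokinase and a part of Mig1 repression, met the milder rule as higher in ptc2 at 0.59 ± 0.12 (SD, n = 2 arrays), 1 of 11 genes against 3.92% of all. After centring it was 0.47 and no longer met the rule. None of the 10 genes tested passed in any mutant against the others, nor for the 5 mutants against wt (limma). The median over the pathway was 0.31 in ptc2, against 0.12 over all genes, and between −0.082 and 0.13 in the other mutants. MTH1, the corepressor gene, lay between −0.30 and 0.32, and RGT1, the repressor gene, between −0.43 and 0.20. In the Snf1 and Mig1 pathway, 3 of 15 genes had no value, and HXK2 in ptc2 was again the 1 gene called by size. There it was 1 of 10 genes measured on both arrays, against 3.92% of all genes.

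Hexose phosphorylation follows uptake. HXK1, the second hexokinase, and GLK1, glucokinase, both made when glucose is scarce, met the milder rule as lower in ptc3 and ptc4. That was 2 of 4 genes in each, against 0.502% of all genes in ptc3 and 1.06% in ptc4. HXK1 was at −0.63 ± 0.028 in ptc3 and −0.73 ± 0.11 in ptc4, and GLK1 at −0.61 ± 0.24 and −0.70 ± 0.23 (SD, n = 2 arrays). Against the other 4 mutants GLK1 was higher by 0.83 in ptc1 (limma adjusted p = 0.036), 1 of 4 genes tested, against 3.41% of all frames. Relative to wt, GLK1 was at 0.31 in ptc1 and between −0.70 and −0.20 in the other 4 mutants. It missed the threshold on array 2 alone (limma adjusted p = 0.354) and with ptc3, ptc4 or ptc5 left out (0.065 to 0.086). Among 15 glucose-repressed genes, which include HXK1 and GLK1, MLS1 was higher by size in ptc1, with 0.89 on both arrays, and in ptc2. MDH2, cytosolic malate dehydrogenase, met the rule as higher in ptc2 at 0.61 ± 0.0021, but not after centring, at 0.48. MLS1 in ptc2 had the unequal dye swaps described beside HXT6. In this list 1 of 13 genes measured on both arrays was thus called higher in ptc1, against 1.56% of all genes. For ptc2 it was 2 of 10, against 3.92%. Called lower, as HXK1 and GLK1, were 2 of 12 in ptc3, against 0.502%, and 2 of 11 in ptc4, against 1.06%. The median over this list lay between −0.24 in ptc5 and 0.077 in ptc3.

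Some stress genes under the activators Msn2 and Msn4, which also act on HXT5, were higher in ptc1 than in the mean of the other mutants. HSP12, a small membrane-bound heat shock gene, had log2 ratios of 1.41 and 1.58 in ptc1 and between −2.60 and −1.73 on the 8 arrays of the others. HSP26, a small chaperone gene, was at 1.58 and 1.65 in ptc1, at −0.815 and −0.745 in ptc2 and at −0.83 and −0.91 in ptc3. It was at 0.062 and −0.20 in ptc4 and above wt in ptc5, at 0.35 and 0.16. HXT5, at 0.35 in ptc3, did not share the direction of these genes there. Among 9 list genes that could be tested, 5 rose and 0 fell in ptc1 relative to the other mutants, with a median difference of 0.66 against −0.084 over all genes. The 5 were HSP12, HSP26, HOR7, PGM2 and ALD3, with limma adjusted p between 4.63e-05 and 0.033, against 3.41% of all frames. On array 2 alone HSP12 still passed and the other 4 did not (limma adjusted p = 0.131 to 0.217). ALD3 also missed the threshold on array 1 alone (0.339) and with ptc4 or ptc5 left out (0.086 and 0.074). HXT5 could not enter that test.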

How the data were processed

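Transcripts of 6 strains were compared on 10 arrays of 2 colours. The authors deposited 1 log ratio of mutant over wt per frame and array, taken as log2; the base is not stated. Per the labels' protocols, labelled cDNA came from 8 µg total RNA per sample, and small or dim spots were left out. The scanner, background correction, normalization and genome build were not given in the sources used here. The number of arrays limits the precision. Spot brightness was not analysed here, and the ratios alone do not separate dim spots from bright. Direction was taken from the labels: the sign had been turned on swapped arrays, since the 2 arrays of each mutant correlate positively and PTC1, PTC3 and PTC5 were below 0 in their own mutants on both orientations.

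Gene names were taken from RefSeq (assembly R64), where 5639 of 6212 frames had a locus tag. Values were used as deposited and the 2 arrays of a mutant averaged. Differences were fitted with limma 3.58.1 in R 4.3.3 on the 3606 frames with all values, comparing every mutant with the mean of the other 4 (3 residual degrees of freedom) and the 5 means against 0 (4 degrees of freedom), with Benjamini-Hochberg adjustment over all frames and a threshold of 0.05. The fit was also run on simulated independent values. These had no shared wt error and no array pairs, so that run cannot speak to those limits. Each strain is 1 extract, so p-values cover only the spread between these strains, part of which may be technical. Named genes are the 10 members, list genes that met the milder size rule (up to 4 per list and mutant) or the limma threshold, and 5 similar profiles for GAL2 and the 2 fully measured members of widest range. Named outside this rule, after their values were seen, were HXT9, HXT12, HXT15, HXT16, GAL1, GAL7, GAL10, GAL80, GAL3, MTH1 and RGT1. Members, lists and size rules were chosen with earlier results of these data known.

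Array number and dye orientation coincide. The difference between array 1 and array 2 correlated across genes in all 10 pairs of mutants (r between 0.17 and 0.67, each over 0.1), and the array numbers were treated as pairs. Alternatives tried were array centring, other rules on missing values and size, robust moderation, arrays as samples with or without a block, and leaving out an array number or a mutant.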

Additional observations from a re-analysis of the deposited data

Results flagged for a closer look

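In 5 pairs of mutants, both arrays of a gene lay above wt in 1 mutant and below wt in the other. None of these differences between pairs was tested, and each rests on 1 extract per strain measured on 2 arrays. The share of all genes with such opposite pairs was not counted. GAL2 differed by −1.71 on the log2 scale between ptc2 and ptc3 (mean −1.34 minus 0.37), by 0.61 between ptc3 and ptc4 (0.37 minus −0.24) and by 1.66 between ptc3 and ptc5 (0.37 minus −1.29). HXT4 differed by 0.35 between ptc1 and ptc3 (0.17 minus −0.18) and by 0.27 between ptc1 and ptc5 (0.17 minus −0.10). Centring each array changed no sign among the 25 pairs of gene and mutant with both arrays.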

How the results depend on the processing

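Of the 3 members tested, the number called for the 5 mutants against wt was 0 and became 2, HXT3 and HXT7, with the 10 arrays as samples without a block (2, with 9.21% of all frames called), with the array number as a replicate block (2, with 14.3%) and with ptc1 left out (2, with 18.3%), against 0.194% as reported. It ranged from 0 to 2 when 1 array number was left out. HXT3 had limma adjusted p between 0.0066 and 0.303 over the alternatives and HXT7 between 0.016 and 0.308. The fits on arrays count dye swaps as samples; for the others the cause was not tested. No alternative, the replicate block included, called a member in any mutant against the other 4, but uncalled estimates changed sign. Between array 1 alone and array 2 alone, HXT3 went from 0.060 to −0.29 in ptc1 and from 0.061 to −0.049 in ptc5. HXT7 went from −0.13 to 0.27 in ptc2 and from 0.013 to −0.38 in ptc5. HXT6 went from −0.030 to 1.52 in ptc2 and from 0.092 to −1.74 in ptc3, and was at 0.51 on array 2 alone in ptc4. HXT7 in ptc2 became −0.061 after centring and −0.034 without ptc4. HXT6 in ptc4 became 0.0077 without ptc1 and 0.11 without ptc2. HXT3 became 0.020 in ptc3 without ptc2, and in ptc5 −0.024 without ptc1, −0.0067 without ptc3 and −0.024 without ptc4. Of the 8 context genes called in ptc1, HSP12 passed under every alternative; HSP26, GLK1, ALD3, RAS1 and GCY1 did not when 1 array per mutant was enough, nor HSP26 with robust moderation. Members called by size numbered 2 and became 5 under the milder rule, by its construction. On the values as deposited, leaving out array 1 removed the call of GAL2 in ptc2 and added HXT6. After centring, ptc2 array 2 alone gave −1.03 for GAL2. Counts over all genes ran from 7 to 301 in ptc1 (123 as reported), from 0 to 2 in ptc2 (0 as reported), from 1 to 2 in ptc3 (1 as reported) and from 0 to 670 for the set (7 as reported). Centring, tried on the context genes after seeing the data, ended the size calls of HXK2 and MDH2 in ptc2 and added PGM2 there, at −0.67. It moved members by 0.13 in ptc2 and by at most 0.019 elsewhere. Missing spots limit HXT1, HXT2, HXT5, RGT2 and SNF3 most.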

Other observations

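The genes of the pathway from glucose to cyclic AMP, which signals glucose to protein kinase A, were close to wt. Of 15, between 11 and 13 were measured on both arrays of a mutant, and none met the milder size rule. RAS1, a small GTPase gene upstream of adenylate cyclase, had log2 ratios of −0.21 and −0.33 in ptc1, whereas the remaining 8 arrays gave values from 0.18 to 0.55. Against those mutants RAS1 fell by 0.60 in ptc1 (limma adjusted p = 0.036), the 1 of 11 genes tested to pass, against 3.41% of all frames. It did not pass on either array number alone (limma adjusted p = 0.261 and 0.189) or with ptc4 or ptc5 left out (0.115 and 0.081).

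Of 15 markers of mating type and sporulation, 9 had any value, and these lay between −0.58 and 0.70 on all arrays, so no mutant differed from wt by 2-fold in a measured marker.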
